A study of Mus musculus with 30 samples.

Results

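Wild-type (WT) newborn mouse frontal cortex was compared with WT parietal cortex, gene by gene, on 8 expression arrays. The arrays were chosen by their titles and tissue labels, 4 of frontal brain and 4 of parietal brain, out of 24 arrays of newborn tissue and 30 in the whole study. The study examined Tbr1, a T-box transcription factor of early-born cortical neurons, in mice of the CD1 strain. The WT animals were wild type at Tbr1 and were taken at postnatal day (P) 0.5, the day of birth, and no treatment of them is named in the labels. Also used here were 4 WT occipital arrays of the same age and 8 arrays from Tbr1 -/- (KO) animals, 4 frontal and 4 parietal, also CD1 and P0.5, bred by crossing heterozygotes. The 4 KO occipital arrays entered the fit, which took its spread from all 24 newborn arrays, and appear in figures only. The null allele is in every cell, so the KO regional values are not those of a cortex-restricted deletion. The labels call the tissue frontal or parietal brain and do not say how the pieces were cut, which sex the animals were, whether animals were pooled, or whether same-numbered arrays came from 1 animal. The p-values measure the spread between these samples. Values are log2 signals, and differences are frontal minus parietal unless another is named.

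The neocortex is divided along its front-to-back axis into areas. Signalling proteins of the FGF, BMP and Wnt families at the edges of the cortical sheet set up graded levels of transcription factors in the progenitors, among them Nr2f1 and Emx2 (high at the back) and Pax6 and Sp8 (high at the front). The neurons born from these progenitors then make area-specific sets of transcription factors, adhesion proteins and guidance receptors around birth, when thalamic axons arrive. Frontal tissue at this age holds the future motor and prefrontal areas and parietal tissue the future somatosensory area.

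The tissue labels were checked against marker lists. The mean level of the 7 measured genes for cortical excitatory neuron identity (among them Neurod6, Lhx2 and Tbr1) lay between 9.42 and 9.69 in the WT frontal arrays and between 9.52 and 9.76 in the WT parietal arrays. Tbr1 read 10.36, 10.21, 10.60 and 10.24 in WT frontal and 10.16, 10.14, 10.43 and 10.37 in WT parietal tissue, which overlap (difference 0.08, SE 0.124, limma adjusted p 0.749). WT frontal replicate 4 stood apart: the middle spread (interquartile range) of its deviations from each gene's median was 0.462, against 0.112 to 0.247 in the other 11 WT arrays. WT parietal replicate 2 went against its group in sex-linked genes, with a Y-linked mean of 5.76 against 8.99 to 9.25 in the other 7 arrays compared, and Xist, the RNA of the inactive X chromosome, at 12.1. WT parietal replicate 3 held both Y-linked RNA (9.18) and Xist (8.65), against Xist between 5.65 and 6.39 in the remaining 6 arrays.

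Few genes passed the threshold between the 2 regions at birth. Of 19938 genes tested, 34 (0.171%) had an adjusted p (limma, Benjamini-Hochberg) below 0.05 and were called, 12 (0.0602%) higher in frontal and 22 (0.110%) lower. In all 34 the 4 frontal values lay wholly above or wholly below the 4 parietal values, a pattern seen in 1131 genes (5.67%) over the table. The calls rest on the same arrays, so this separation is a description and not separate support. The median rise was 0.65 and the median fall -0.62, against 0.00486 over all genes, and 22 of the 34 reached 1.5-fold. Only Nts, Rxfp1 and Mc4r reached 2-fold. At an unadjusted p under 0.05 there were 2568 genes (12.9%).

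**Figure D1:**
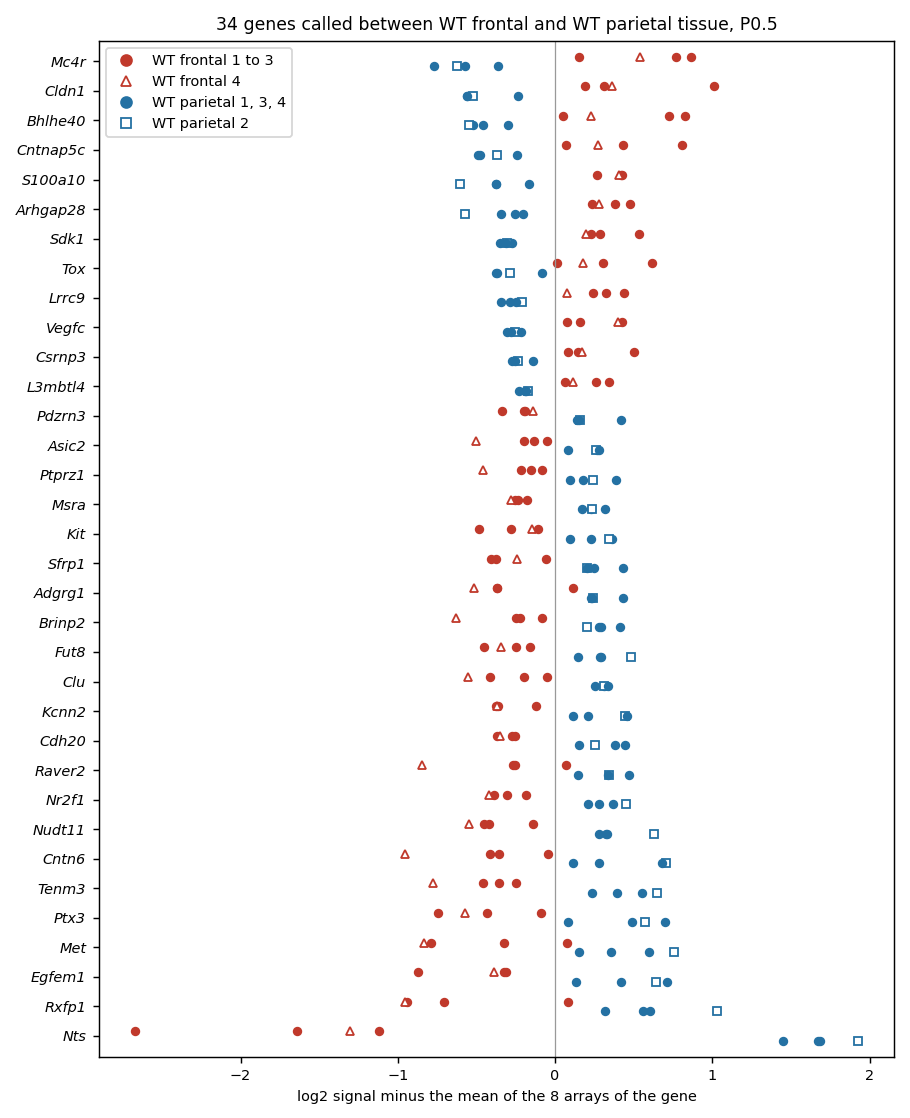
The log2 signal of each array minus the mean of the 8 arrays of that gene (x axis) for the 34 called genes (y axis), from the largest rise in frontal tissue (Mc4r, 1.17) to the largest fall (Nts, -3.37), with red for frontal and blue for parietal arrays and open symbols for WT frontal 4 and WT parietal 2. In every gene the red and blue symbols do not overlap, and the frontal values of Nts spread far more widely than its parietal values.

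Regulators of transcription made up 5 of the called genes, with no share over all genes to set beside them. Of these, 1 fell and 4 rose in frontal tissue. Nr2f1 (COUP-TFI), a nuclear receptor known to favour sensory over frontal and motor area identity, read 9.63, 9.74, 9.54 and 9.51 in frontal and 10.14, 10.38, 10.21 and 10.30 in parietal arrays. The groups were 0.40 apart at their nearest values, and the range within each was 0.23 and 0.24. The difference was -0.65 (SE 0.0957, limma adjusted p 8.68e-04), 1.57-fold lower in frontal tissue. Bhlhe40, a basic helix-loop-helix repressor, went the other way, with 8.73, 8.84, 8.06 and 8.24 in frontal and 7.48, 7.46, 7.71 and 7.55 in parietal tissue. Frontal replicates 1 and 2 were its highest arrays, and all 4 frontal values exceeded the parietal ones, by 0.92 in the mean (SE 0.128, limma adjusted p 6.55e-04). Tox, an HMG-box DNA-binding protein, ranged from 8.98 to 9.59 in frontal and from 8.59 to 8.88 in parietal tissue (difference 0.56, limma adjusted p 0.0147). Csrnp3, a nuclear protein of a small family of transcription factors, was 11.21 ± 0.19 and 10.76 ± 0.06 (SD, n = 4 each; difference 0.45, limma adjusted p 0.00981). L3mbtl4, a member of the malignant brain tumour domain family of chromatin-binding proteins, was 8.16 ± 0.13 and 7.77 ± 0.03 (difference 0.39, limma adjusted p 0.0457), and a second probe set of this gene gave 0.25. Nr2f1 and Bhlhe40 were called whichever of the 8 arrays was left out. Tox lost its call without frontal 2 or without parietal 1, 2 or 4 (highest adjusted p 0.0868), Csrnp3 without frontal 2 or parietal 4 (highest 0.0582), and L3mbtl4 whichever array other than frontal 1 was left out (highest 0.134).

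Promoter windows were searched for the sites of 3 such factors, since Nr2f1 and Bhlhe40 differed between the regions and Tbr1 is the factor the study removed. The RefSeq table of promoters (250 bases before to 50 after each gene's start, GRCm38.p6) held 33 windows of 23 of the 34 called genes. The nuclear receptor half-site AGGTCA, on either strand, was in 1 of the 33 windows (3.03%), against 14.2% of the 19177 windows of all measured genes. CACGTG, the site of Bhlhe40 and many other basic helix-loop-helix proteins, was in 2 (6.06%) against 8.24%. The T-box core GGTGTGA, or TCACACC on the other strand, was in 2 (6.06%) against 3.7%. The matches were Arhgap28 for the half-site, L3mbtl4 and Met for CACGTG, and Adgrg1 and Ptx3 for the T-box core. The match nearest the start is shown for each motif on the gene's own strand from 5′ to 3′, in capitals, at position 20, -126 and -131 from the start in the order given. The windows are chr17:67950891-67951190 on the minus strand for Arhgap28, chr6:17463707-17464006 on the plus strand for Met and chr8:94976859-94977158 on the plus strand for Adgrg1. A match is a description of these letters and not evidence of binding.
Arhgap28: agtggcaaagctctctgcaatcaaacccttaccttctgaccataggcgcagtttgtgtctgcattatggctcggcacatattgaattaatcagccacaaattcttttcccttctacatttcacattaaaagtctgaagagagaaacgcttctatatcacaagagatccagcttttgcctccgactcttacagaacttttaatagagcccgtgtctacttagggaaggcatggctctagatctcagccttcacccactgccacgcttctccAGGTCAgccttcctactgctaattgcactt
Met: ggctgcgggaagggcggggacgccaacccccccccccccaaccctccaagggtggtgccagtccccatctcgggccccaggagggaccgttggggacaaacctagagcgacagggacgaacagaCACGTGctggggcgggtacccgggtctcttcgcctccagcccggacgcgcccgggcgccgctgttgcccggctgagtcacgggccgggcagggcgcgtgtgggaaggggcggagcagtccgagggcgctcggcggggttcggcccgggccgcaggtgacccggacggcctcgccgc
Adgrg1: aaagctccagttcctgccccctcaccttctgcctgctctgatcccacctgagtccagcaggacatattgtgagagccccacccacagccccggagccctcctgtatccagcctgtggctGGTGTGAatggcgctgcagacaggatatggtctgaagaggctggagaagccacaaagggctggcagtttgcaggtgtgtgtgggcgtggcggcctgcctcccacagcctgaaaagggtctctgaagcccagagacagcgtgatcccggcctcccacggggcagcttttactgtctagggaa

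Surface proteins of adhesion and cell recognition made up 8 of the 34 genes, with no share over all genes to set beside them. Of these, 3 were higher and 5 lower in frontal tissue. Tenm3, a teneurin that guides the matching of axons to targets in several sensory maps, had the smallest p of all genes. Its frontal values were 9.93, 10.03, 10.14 and 9.61, and its parietal values 10.94, 11.04, 10.62 and 10.78. No frontal array came near the lowest parietal one, and the difference was -0.92 (SE 0.107, limma adjusted p 1.08e-04). Cntn6, a contactin of the immunoglobulin superfamily made in deep-layer cortical neurons, read 8.64, 8.58, 8.95 and 8.04 in frontal and 9.27, 9.70, 9.11 and 9.67 in parietal tissue. Its groups were separated by 0.16 only, and frontal 4 was the lowest array (difference -0.88, SE 0.174, limma adjusted p 0.0203). Cdh20, a type II cadherin, was 7.11 ± 0.06 in frontal and 7.73 ± 0.13 in parietal tissue (SD, n = 4 each), a difference of -0.62 (limma adjusted p 0.00477). Adgrg1 (GPR56), an adhesion G protein-coupled receptor of neural progenitors required for an orderly pial border of the cortex, read 8.84, 8.36, 8.36 and 8.21 against 9.16, 8.97, 8.96 and 8.96. Frontal 1 was its highest frontal array and parietal 1 its highest parietal array (difference -0.57, limma adjusted p 0.00815). Ptprz1, a receptor tyrosine phosphatase of radial glia that also binds contactins, was 10.73 ± 0.16 against 11.18 ± 0.12 (difference -0.45, limma adjusted p 0.0057).

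The 3 adhesion genes that rose in frontal tissue were Cldn1, Cntnap5c and Sdk1. Cldn1, a claudin of tight junctions, read 7.65, 8.35, 7.53 and 7.70 in frontal and 6.78, 6.82, 7.10 and 6.77 in parietal arrays. Frontal 2 stood highest, and the difference was 0.94 (SE 0.133, limma adjusted p 6.55e-04). Cntnap5c, a contactin-associated protein of the neurexin family, read 9.04, 9.42, 8.68 and 8.88 against 8.12, 8.24, 8.37 and 8.14, and its 2 probe sets gave 0.79 and 0.89. For the first of them the adjusted p was 6.55e-04 (limma). Sdk1, a sidekick protein that directs synaptic partners by homophilic binding, had 8.61, 8.86, 8.55 and 8.52 against 8.05, 8.02, 7.97 and 8.01. Its parietal arrays lay within 0.08 of each other, and the difference was 0.62 (SE 0.0874, limma adjusted p 6.55e-04). Tenm3, Cldn1, Cntnap5c, Sdk1, Cdh20 and Ptprz1 were called whichever single array was left out. Cntn6 lost its call without frontal 2 or 4 or parietal 2 or 4 (highest adjusted p 0.143), and Adgrg1 without frontal 4 or parietal 1 (highest 0.0657).

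The largest difference of all was in a neuropeptide. Nts, the precursor of neurotensin, read 7.59, 7.07, 6.04 and 7.41 in frontal and 10.17, 10.64, 10.38 and 10.40 in parietal arrays. The lowest parietal value lay 2.57 above the highest frontal one, and the parietal arrays were close together while frontal 3 was 1.03 below the next frontal array. The difference was -3.37 (SE 0.509, limma adjusted p 0.00108), 10.3-fold lower in frontal tissue. Ntsr1, a neurotensin receptor of layer 6 corticothalamic neurons, was not called (8.74 ± 0.16 in frontal and 9.02 ± 0.06 in parietal tissue, SD, n = 4 each, difference -0.28, limma adjusted p 0.301). Rxfp1, a relaxin receptor, read 6.39, 6.63, 7.42 and 6.38 against 7.94, 8.37, 7.65 and 7.90. Its frontal 3 lay within 0.24 of the lowest parietal array while the other 3 frontal arrays were much lower (difference -1.26, SE 0.197, limma adjusted p 0.00167). Mc4r, the melanocortin receptor known for control of food intake, was the largest rise, with 9.79, 9.88, 9.17 and 9.56 in frontal and 8.24, 8.39, 8.65 and 8.44 in parietal arrays. All frontal arrays exceeded all parietal ones by at least 0.51, and the mean difference was 1.17 (SE 0.203, limma adjusted p 0.00596), 2.24-fold.

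Among the called growth factor receptors and ligands, Met and Kit were lower and Vegfc higher in frontal tissue. Met, the receptor of hepatocyte growth factor and a gene with an area-restricted pattern in developing cortex, read 8.24, 8.70, 9.10 and 8.19 in frontal and 9.62, 9.78, 9.18 and 9.38 in parietal arrays. Frontal 3 came within 0.08 of parietal 3, while the other 3 frontal arrays lay lower, and the difference was -0.93 (SE 0.177, limma adjusted p 0.0137). Kit, the receptor of stem cell factor, read 9.35, 8.97, 9.18 and 9.31 against 9.82, 9.80, 9.55 and 9.69 (difference -0.51, SE 0.082, limma adjusted p 0.00219). Its groups were 0.20 apart at their nearest. Vegfc, a growth factor of lymphatic vessels and neural progenitors, read 8.17, 8.44, 8.09 and 8.42 against 7.71, 7.76, 7.80 and 7.74, a difference of 0.53 (SE 0.0794, limma adjusted p 0.00108). Its parietal arrays lay within 0.09 of each other, the frontal ones within 0.35. Sfrp1, a secreted inhibitor of Wnt signalling made by cortical progenitors, was 8.51 ± 0.16 in frontal and 9.05 ± 0.11 in parietal tissue (SD, n = 4 each, difference -0.54, limma adjusted p 0.0266). Egfem1, named for its EGF-like and EMI domains, read 7.12, 7.14, 6.57 and 7.06 against 8.16, 8.09, 7.58 and 7.86. Both groups had 1 low array, replicate 3 in each, and the difference was -0.95 (SE 0.133, limma adjusted p 6.55e-04). Nts, Rxfp1, Mc4r, Kit, Vegfc and Egfem1 were called whichever single array was left out. Met lost its call without frontal 4 or parietal 1 or 2 (highest adjusted p 0.103), and Sfrp1 whichever array other than frontal 1 was left out (highest 0.115).

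Both called ion channel genes were lower in frontal tissue. Kcnn2, a small-conductance calcium-activated potassium channel, ranged from 8.76 to 9.01 in frontal and from 9.24 to 9.59 in parietal arrays (difference -0.61, limma adjusted p 0.0266). Asic2, an acid-sensing sodium channel, ranged from 8.28 to 8.72 and from 8.86 to 9.06 (difference -0.44, limma adjusted p 0.0203). Neither was stable to leaving out arrays. Kcnn2 lost its call without frontal 1, 2 or 4 or parietal 2, 3 or 4 (highest adjusted p 0.167), and Asic2 without frontal 4 or parietal 1, 2 or 4 (highest 0.103). Of the other 21 measured genes in the list of potassium channels, none was called.

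Of the remaining 11 genes, 3 were higher and 8 lower in frontal tissue. S100a10, the partner of annexin A2 and a marker of a class of layer 5 neurons, read 10.98, 11.13, 11.14 and 11.11 in frontal and 10.33, 10.10, 10.54 and 10.34 in parietal arrays. Its frontal arrays lay within 0.16 of each other, and the difference was 0.76 (SE 0.129, limma adjusted p 0.0048). Arhgap28 read 8.45, 8.35, 8.21 and 8.25 against 7.72, 7.40, 7.76 and 7.63 (difference 0.69, SE 0.104, limma adjusted p 0.00108). Lrrc9, a leucine-rich repeat protein, was 7.50 ± 0.15 against 6.95 ± 0.06 (SD, n = 4 each, difference 0.54, limma adjusted p 0.0207). In both, every frontal array lay above every parietal one, by 0.44 and 0.28 at the nearest. Of those that fell, Ptx3, a long pentraxin of innate immunity, read 7.60, 7.25, 6.94 and 7.11 against 7.77, 8.26, 8.38 and 8.18. Its frontal 1 and parietal 1 were the nearest arrays of the groups, 0.17 apart (difference -0.92, SE 0.164, limma adjusted p 0.00669). Fut8, the enzyme that adds core fucose to N-glycans, read 9.01, 8.92, 8.72 and 8.83 against 9.45, 9.65, 9.31 and 9.46 (difference -0.60, SE 0.0881, limma adjusted p 8.68e-04), with no frontal array near the parietal range. Clu, the secreted chaperone clusterin, was 8.70 ± 0.22 against 9.31 ± 0.03 (difference -0.61, limma adjusted p 0.00669).

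The differences of the other 5 that fell were smaller or less stable. Nudt11, a phosphohydrolase of diphosphoinositol polyphosphates, was 8.62 ± 0.17 in frontal and 9.40 ± 0.16 in parietal tissue (SD, n = 4 each, difference -0.78, limma adjusted p 0.00669). Raver2, an RNA-binding protein, ranged from 7.14 to 8.05 and from 8.13 to 8.45 (difference -0.65, limma adjusted p 0.0255), with frontal 4 the lowest array by 0.58. Brinp2, of a family of neural proteins known to slow the cell cycle, was 8.09 ± 0.23 against 8.68 ± 0.09 (difference -0.59, limma adjusted p 0.00669). Msra, which repairs oxidised methionine, ranged from 8.93 to 9.03 and from 9.38 to 9.52 (difference -0.47, limma adjusted p 0.00606), with a range within each group of 0.10 and 0.14. Pdzrn3, a ubiquitin ligase with PDZ domains, was 7.92 ± 0.08 against 8.36 ± 0.13 (difference -0.43, limma adjusted p 0.0368). S100a10, Arhgap28, Ptx3, Fut8, Clu, Brinp2 and Msra were called whichever single array was left out. Nudt11 lost its call without parietal 2 (adjusted p 0.0574), Raver2 without frontal 2 or 4 or parietal 1, 2 or 4 (highest 0.103), Pdzrn3 whichever array other than frontal 1 was left out (highest 0.153), and Lrrc9 without frontal 1 or 2 or any parietal array (highest 0.0839).

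In all, 21 of the 34 genes kept their call in each of the 8 fits that left out 1 array, and no sign changed. The count itself was 28 without WT frontal 4 (25 of them among the 34, 14 higher and 14 lower), 24 without WT parietal 2, 69 without WT frontal 1 and 63 without WT frontal 3. Without WT frontal 4 and WT parietal 2 together 13 genes were called, all among the 34. Fitted on the 8 arrays alone, 36 genes were called, only 22 of them among the 34. Lost in that fit were Tox, Csrnp3, L3mbtl4, Pdzrn3, Asic2, Ptprz1, Kit, Adgrg1, Brinp2, Raver2, Cntn6 and Met. The 13 genes called without both arrays were Cldn1, Bhlhe40, Cntnap5c, Arhgap28, Sdk1, Vegfc and Lrrc9, higher in frontal tissue, and Nts, Egfem1, Tenm3, Nr2f1, Fut8 and Kit, lower.

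Occipital tissue, further back, gives the third point along the axis, and its values are set beside the others as a description because the comparisons share arrays. Nr2f1 read 10.55, 10.97, 10.99 and 10.88 in WT occipital tissue, above all parietal arrays (parietal minus occipital -0.59, limma adjusted p 0.00189). Tenm3 read 11.38, 11.76, 11.44 and 11.33 (parietal minus occipital -0.63, limma adjusted p 0.00308), and Met 9.96, 10.81, 10.58 and 10.36 (-0.93, limma adjusted p 0.00863). For these 3 genes, and for Egfem1 (9.05 ± 0.23 in occipital tissue) and Cdh20 (8.25 ± 0.24, SD, n = 4 each), the 4 values in each region stepped up from front to back without overlap. S100a10 stepped down, with 9.74, 9.19, 9.69 and 9.82 in occipital tissue (parietal minus occipital 0.72, limma adjusted p 0.00591), and so did Lrrc9 (6.32 ± 0.12 in occipital tissue, 0.63, limma adjusted p 0.00308). Kit stepped up and Bhlhe40, Sdk1 and Vegfc stepped down without overlap too, with parietal minus occipital differences that were not called (limma adjusted p 0.19, 0.404, 0.513 and 0.405). Over all genes 62 (0.311%) stepped 1 way without overlap. A gene can do so only if its frontal and parietal values do not overlap, which held for 1131 genes and for every called gene. The share over all genes is therefore too low a background for the called genes, and the 62 are better set against the 1131. The background for parietal minus occipital was 90 genes called (0.451%).

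A different shape was seen in Cldn1, Cntnap5c, Arhgap28 and Csrnp3, whose occipital levels (6.84 ± 0.15, 8.25 ± 0.12, 7.54 ± 0.03 and 10.74 ± 0.17) lay near the parietal ones (6.87 ± 0.16, 8.22 ± 0.12, 7.63 ± 0.16 and 10.76 ± 0.06, SD, n = 4 each). Clu, Adgrg1, Ptprz1 and Asic2 were likewise near their parietal levels in occipital tissue. Nts had its tightest values in parietal tissue and a wide range in occipital tissue, at 11.79, 8.95, 7.97 and 9.47. Sfrp1 and Kcnn2 had mean parietal levels above both neighbours. Sfrp1 was 9.05 ± 0.11 against 8.51 ± 0.16 in frontal and 8.72 ± 0.07 in occipital tissue. Kcnn2 was 9.44 ± 0.17 against 8.83 ± 0.12 and 9.13 ± 0.30, and its parietal and occipital values overlapped. Neither was called for parietal minus occipital (limma adjusted p 0.275 and 0.484). Whether parietal tissue departs from the mean of its neighbours was tested across all genes, and 1 gene (0.00502%) was called. This was Sema7a, a membrane-anchored semaphorin that promotes axon growth and sensory map formation. It read 10.67, 10.72, 10.62 and 10.64 in parietal tissue, 10.21, 10.37, 10.58 and 10.22 in frontal and 10.03, 10.14, 10.09 and 9.68 in occipital tissue. Every parietal array was above every other WT array (0.50 above the mean of both regions, SE 0.0807, limma adjusted p 0.0365). Without frontal 2, without frontal 4 or without any 1 parietal array 0 genes were called, and without frontal 1 there was 1 that was not Sema7a. Without frontal 3 there were 12, Sema7a among them. For this contrast 987 genes (4.95%) had an unadjusted p under 0.05, and Nts was 2.11 above the mean with a limma adjusted p of 0.411.

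**Figure D2:**
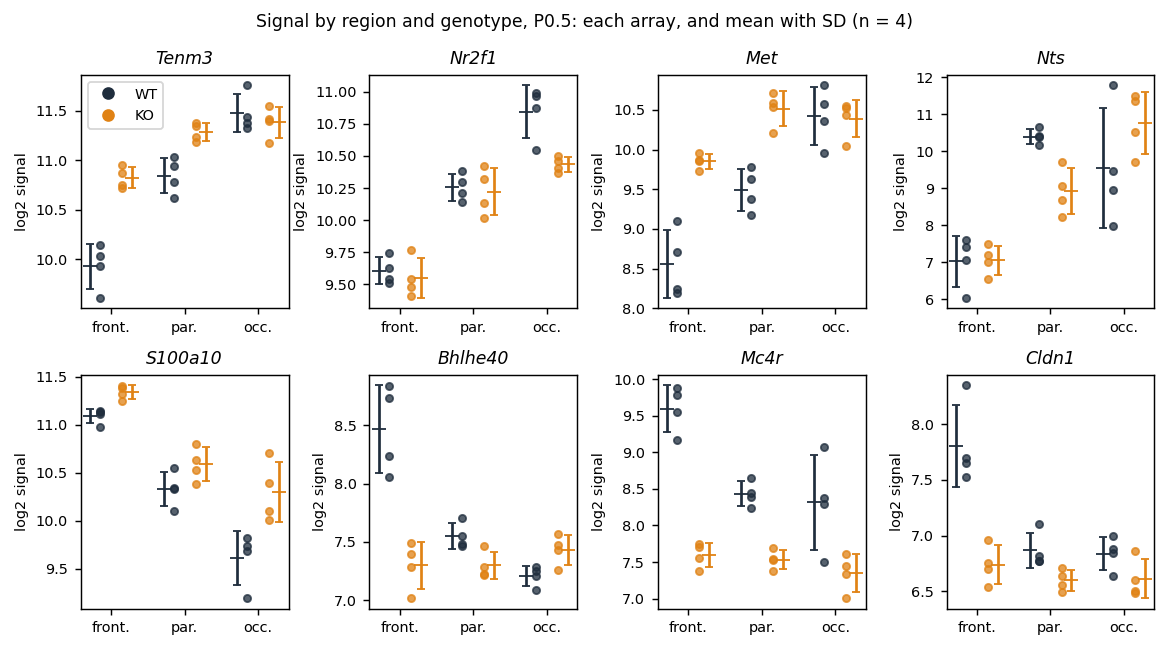
Log2 signal (y axis) of 8 called genes in frontal, parietal and occipital tissue (x axis) of WT (dark) and KO (orange) animals, each point 1 array and each bar the mean with its SD (n = 4). In WT tissue Tenm3, Nr2f1 and Met step up and S100a10 steps down from front to back, while Bhlhe40, Mc4r and Cldn1 are high in WT frontal arrays (means 8.47, 9.60 and 7.81) and lie lower in KO frontal arrays (7.30, 7.60 and 6.74).

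The frontal and parietal differences of KO animals come from other samples than the WT differences. The SE of each gene was estimated from all 24 arrays together, so the KO p-values share that estimate with the WT calls and are not independent of them. Tbr1 itself read between 9.48 and 9.90 in KO frontal arrays and between 9.49 and 9.91 in KO parietal arrays, below all WT arrays of the same region. In KO tissue 47 genes (0.236%) were called between the regions, 18 (0.0903%) higher and 29 (0.145%) lower in frontal tissue. The Y-linked mean was uneven there, at 5.09 to 5.99 in KO frontal and 5.36 to 9.11 in KO parietal arrays. With it as a covariate 33 genes were called, 29 of them among the 47. Fitted on only the arrays compared, 48 were called, 25 of them among the 47. Called in both genotypes were 7 genes, in the same direction in each, which is 20.6% of the WT calls and 14.9% of the KO calls. They were S100a10 and Arhgap28, higher in frontal tissue, and Nr2f1, Egfem1, Kit, Asic2 and Msra, lower. S100a10 read 11.25, 11.40, 11.32 and 11.38 in KO frontal and 10.63, 10.80, 10.38 and 10.53 in KO parietal tissue (difference 0.75, SE 0.129, limma adjusted p 0.00863). Nr2f1 read 9.54, 9.48, 9.41 and 9.77 against 10.13, 10.42, 10.02 and 10.32 (difference -0.67, SE 0.0957, limma adjusted p 0.00102). For Kit the KO difference was -0.81 (SE 0.082, limma adjusted p 6.59e-06). In these 3 genes the KO groups did not overlap, as in WT tissue.

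Over the 34 genes called in WT tissue, 30 had the same sign in KO tissue (9 of the 12 rises and 21 of the 22 falls), against 50.8% of all genes. With an unadjusted p under 0.05 in KO tissue and the same sign there were 20 (6 rises and 14 falls), against a background of 8.11% in either direction. In 16 the KO values also did not overlap, in the WT direction (5.52% of all genes did not overlap in KO tissue, in either direction). The median KO difference was 0.19 for the rises and -0.40 for the falls, against -0.01 over all genes.

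Several of the frontal-high genes had little regional difference in KO tissue. Bhlhe40 read 7.39, 7.02, 7.29 and 7.49 in KO frontal and 7.23, 7.47, 7.28 and 7.22 in KO parietal arrays, which overlap (difference -0.00, SE 0.128), and all 8 lay below the WT frontal arrays. Mc4r read 7.38, 7.75, 7.55 and 7.71 against 7.38, 7.53, 7.54 and 7.69 (difference 0.06, SE 0.203), below every WT frontal and parietal array. Cldn1 (difference 0.14, SE 0.133) and Cntnap5c (0.09, SE 0.111) were likewise near 0 in KO tissue. Tox (-0.06) and Csrnp3 (-0.07) had the opposite sign to WT tissue by a small amount. Among the frontal-low genes Raver2 had the opposite sign (0.14, SE 0.13), and Clu (-0.09), Fut8 (-0.10) and Ptprz1 (-0.13) were close to 0. The KO frontal and parietal means of Clu, 9.45 and 9.54, were both above the WT parietal mean of 9.31.

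Whether the regional difference itself differed between the genotypes was tested over all genes. In that test 2 genes (0.0100%) were called, and none of the 34 was. Of the 34, 20 had an unadjusted p under 0.05 there (8.13% of all genes did), but it includes the WT arrays that chose them. The smallest p among the 34 was that of Bhlhe40 (-0.92, SE 0.181, unadjusted p 3e-05, limma adjusted p 0.187). The 2 called genes were Fst and Lmo4, neither of them called between the regions in WT tissue. Fst, the activin antagonist follistatin, read 7.69, 8.01, 8.07 and 7.76 in WT frontal and 8.44, 8.17, 8.27 and 8.43 in WT parietal tissue. In KO tissue it read 9.55, 9.61, 9.49 and 9.45 in frontal and 9.20, 9.39, 8.86 and 8.78 in parietal arrays. All 4 frontal arrays were below the parietal ones in WT tissue and above them in KO tissue (difference of differences 0.91, SE 0.15, limma adjusted p 0.037). Lmo4, a LIM-only cofactor, read 11.79, 11.92, 11.27 and 11.92 against 11.53, 11.45, 11.21 and 11.33 in WT tissue. It read 11.69, 11.77, 11.38 and 11.58 in WT occipital tissue, which overlaps the frontal values. In KO tissue it read 11.49, 11.23, 10.73 and 11.15 in frontal and 11.84, 11.94, 11.84 and 11.84 in parietal arrays, so that frontal was lower (difference of differences -1.06, SE 0.181, limma adjusted p 0.037). Sex-linked genes moved with this comparison. All 4 KO frontal arrays had a low Y-linked mean (5.09 to 5.99) and high Xist, all 4 WT frontal arrays the reverse, and 2 of 4 KO parietal arrays had a low Y-linked mean. With the Y-linked mean as a covariate no gene was called for the difference between genotypes.

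**Figure D3:**
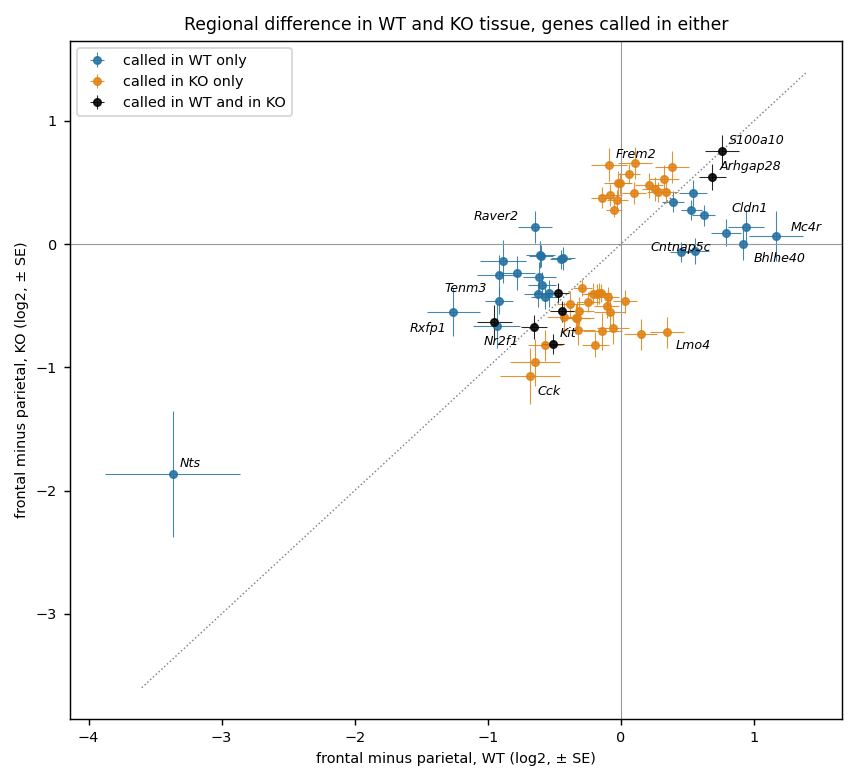
Frontal minus parietal difference in log2 signal in WT tissue (x axis) and KO tissue (y axis), each with its SE, for genes called in WT only (blue), in KO only (orange) or in both (black), with the line of equal difference dotted. Of the genes called in both, S100a10 and Nr2f1 lie on that line and Kit and Egfem1 lie off it to either side (KO -0.81 and -0.63 against WT -0.51 and -0.95), while Bhlhe40, Mc4r, Cldn1 and Cntnap5c lie far to the right of it near a KO difference of 0.

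The called genes were looked up in gene lists for areas, layers and families, which were chosen with earlier results of these data known. Over 42 lists with 456 distinct measured genes, 8 lists had a call, and a gene can count in more than 1 list. Over all genes 0.171% were called. Of 10 genes known to be high in caudal cortex 2 fell in frontal tissue (Tenm3 and Nr2f1), where 0.110% of all genes were called lower. Of the 10, 5 were lower and 5 higher in frontal tissue, and the list's median was -0.10, against 0.00486 over all genes. Tshz2, a zinc finger factor in that list, read 7.41 ± 0.11 in frontal and 8.43 ± 0.30 in parietal tissue (SD, n = 4 each, difference -1.02) but missed the threshold (limma adjusted p 0.0589). In the list for sensory cortex 1 of 7 measured genes fell (Nr2f1), 3 were lower at an unadjusted p under 0.05, 6 were negative and the median was -0.14. Of 14 genes of rostral cortex none was called (median 0.04), and 3 were higher and 2 lower at an unadjusted p under 0.05, where 6.40% of all genes were higher and 6.48% lower. In that list Cbln2, a synapse-organising cerebellin, had a large but uneven difference (1.35, frontal 9.13 ± 1.02, parietal 7.78 ± 0.14, limma adjusted p 0.0834), while Pax6 was -0.60 (limma adjusted p 0.148).

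By layer, the list for layer 5 subcerebral neurons had 2 rises (Bhlhe40 and S100a10) and 1 fall (Cntn6) among 12 genes, with a median of 0.01. Over all genes 0.0602% were called higher and 0.110% lower. None of 12 layer 6 corticothalamic genes (median 0.01), 10 subplate genes (0.09), 13 upper layer and callosal genes (-0.17) or 9 Cajal-Retzius genes (0.06) was called. In the upper layer list 12 of 13 genes were negative, among them Dkk3, a dickkopf family member (8.79 ± 0.15 against 9.37 ± 0.12, SD, n = 4 each, limma adjusted p 0.0846). In the subplate list Nr4a2, a nuclear receptor of subplate and layer 6b neurons, was -0.89 (limma adjusted p 0.147), with frontal and parietal values that did not overlap. In whole tissue, fewer cells of a type and less RNA per cell cannot be told apart.

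Of 26 neuropeptide and receptor genes 1 rose (Mc4r) and 1 fell (Nts), with a median of 0.05. Over all genes 0.0602% were called higher and 0.110% lower. Of 21 contactins, teneurins and latrophilins 2 fell (Tenm3 and Cntn6, median -0.10). Of the 21, 14 were lower and 7 higher in frontal tissue. At an unadjusted p under 0.05, 8 of them were lower and 1 higher, against 6.48% and 6.40% of all genes. Further members of these families, Cntn4 (-0.80, limma adjusted p 0.0961) and Tenm4 (-0.28, limma adjusted p 0.223), did not overlap between the regions and were not called. Cdh20 was the 1 call among 22 cadherins and protocadherins (median 0.05) and Sfrp1 the 1 call among 22 Wnt and BMP genes (median 0.07). None of 14 FGF signalling genes (median 0.09) and none of 17 retinoid genes (median 0.08) was called.

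Markers of meninges and blood vessel moved with the comparison. All 11 genes of the list for meninges and fibroblasts (among them Dcn, Lum, Col3a1 and Foxc1) were higher in frontal tissue, with a median of 1.01, and none was called. Of them 7 had an unadjusted p under 0.05, where 6.40% of all genes were higher at that p. The mean of the list was 9.20, 7.60, 7.34 and 9.67 in the WT frontal arrays and 8.26, 7.20, 7.23 and 7.23 in the WT parietal arrays, so that frontal 1 and 4 and parietal 1 were high and the other 5 arrays lay close together. Of 10 blood vessel genes 9 were higher in frontal tissue (median 0.47, 7 at an unadjusted p under 0.05, none called), and the list's mean ranged from 8.25 to 9.32 in frontal and from 8.13 to 8.48 in parietal arrays. In KO tissue the medians of these lists were 0.51 and 0.21. None of 6 measured choroid plexus genes was called, and 4 were higher and 2 lower in WT frontal tissue. That list's mean ranged from 6.46 to 6.67 in WT frontal and from 6.34 to 7.40 in WT parietal arrays. Its member Ttr read 10.82 in WT parietal 1 and 6.33 to 6.63 in the other WT frontal and parietal arrays. With the meninges mean of each array as a covariate 36 genes were called, 27 of them among the 34. Lost were Lrrc9, Pdzrn3, Asic2, Kcnn2, Raver2, Cntn6 and Met. Of the 12 rises, Lrrc9 was thus the only one not called with that covariate.

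Radial glia and astrocyte genes leaned the other way. The radial glia list was lower in frontal tissue in 9 of 11 genes (median -0.21, none called). Of these, 5 had an unadjusted p under 0.05, where 6.48% of all genes were lower at that p. The list's means were 8.63 to 9.17 in frontal and 9.05 to 9.22 in parietal arrays. Fabp7, the brain fatty acid binding protein of radial glia, came nearest to a call (11.54 ± 0.37 against 12.21 ± 0.04, SD, n = 4 each, difference -0.66, limma adjusted p 0.059). Of 8 astrocyte genes 6 were lower and 2 higher in frontal tissue (median -0.26, none called). At an unadjusted p under 0.05, 4 were lower and 1 higher, where 6.48% and 6.40% of all genes were. Aldoc, a glycolytic enzyme of astrocytes, was -0.91 (limma adjusted p 0.163). The astrocyte list's means overlapped, at 8.02 to 8.76 in frontal and 8.38 to 8.70 in parietal arrays. In KO tissue the median was -0.10 for the radial glia list and 0.01 for the astrocyte list. Sfrp1, Ptprz1, Adgrg1 and Clu, which fell, are also known to be made by radial glia or astrocytes. The part of these cells in the result was not tested. The Y-linked mean in WT parietal 2, given above, moved with the comparison too. With it as a covariate 30 genes were called, all among the 34, and L3mbtl4, Pdzrn3, Sfrp1 and Kcnn2 were lost.

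**Figure D4:**
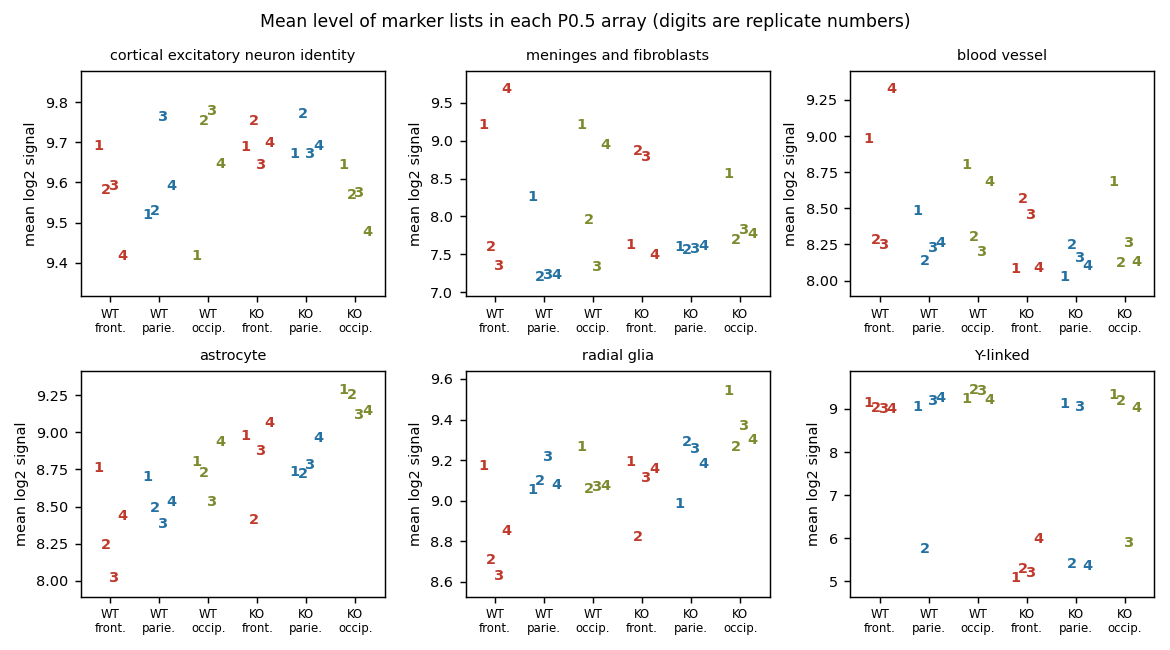
Mean log2 signal (y axis) of 6 marker lists in each array of the 6 groups of newborn tissue (x axis), with the replicate number as the symbol. The meninges list is high in WT frontal 1 and 4 (9.20 and 9.67), and the Y-linked list is low in WT parietal 2 (5.76) and in all 4 KO frontal arrays.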

How the data were processed

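RNA was hybridised to Affymetrix mouse gene arrays, per the labels' protocols, and the authors deposited log2 signals per probe set made with Affymetrix Expression Console 1.1 and RMA, per the submitters' processing notes. RMA corrects background, normalizes across arrays and summarises probes, and is known to compress large differences. The build of the array annotation is not given in the sources used here. Signals ranged from 1.77 to 14.6 and array medians from 7.42 to 7.52. Precision is set by how many arrays there are.

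Of 35557 probe sets, 21789 named 1 gene, 1621 several and 12147 none. The single-gene probe set with the highest mean was used for each of 19938 genes, with no filter on low signals. The 24 newborn arrays, 6 groups of 4, were fitted together in limma 3.58.1 (R 4.3.3) with an intensity trend. Genes were called at a two-sided Benjamini-Hochberg adjusted p under 0.05. The script was tested on simulated data. The table of embryonic tissue, which has no regions, was not used here.

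Named are Tbr1, up to 15 called genes each way whose groups did not overlap, genes called for the other contrasts (up to 5 each way), the 5 or fewer smallest p in each list, Y-linked genes and Xist. Asic2, Ptprz1, Msra, Kit and Pdzrn3 lie outside that rule and were added after their values were seen, to complete the called set. The members and lists were chosen with earlier results of these data known. The labels do not say whether same-numbered arrays came from 1 animal, so the main fit did not pair them. Same-numbered WT frontal and parietal arrays correlated in their residuals at -0.171, 0.290, 0.0144 and -0.0362. The highest value was that of replicate 2. Its frontal and parietal arrays had Y-linked means of 9.02 and 5.76 and Xist at 5.65 and 12.1, so 1 animal cannot have given both. Alternatives were the mean of probe sets, a filter on the dimmest 30% of genes, array medians subtracted, no trend, array weights, a replicate block, a Y-linked covariate, only the arrays compared, a 1.5-fold minimum and leaving out each array. Added after seeing the data were a meningeal covariate and leaving out WT frontal 4 and WT parietal 2 together.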

Additional observations from a re-analysis of the deposited data

Results flagged for a closer look

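In 11 of 78 groups of 4 arrays checked (39 genes, the called genes among them), 1 array lay far from the other 3 by Dixon's test. Chance gives about 1 in 20 for 1 group. The groups come from the same arrays and are not independent, so the count is not an excess over chance. WT parietal replicate 3 was high for Cldn1 (7.101, the others 6.773 to 6.816) and Pdzrn3 (8.555, the others 8.278 to 8.296) and low for Asic2 (8.857, the others 9.040 to 9.056). WT parietal replicate 1 was high for Adgrg1 (9.160, the others 8.960 to 8.971). WT parietal replicate 2 was high for Nudt11 (9.639, the others 9.284 to 9.339).

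WT frontal replicate 1 was low for S100a10 (10.977, the others 11.114 to 11.138). WT frontal replicate 3 was high for Kcnn2 (9.011, the others 8.756 to 8.771) and low for Egfem1 (6.574, the others 7.057 to 7.136). The Y-linked genes Eif2s3y (6.125), Kdm5d (5.790) and Uty (5.370) were low in WT parietal replicate 2, where the other 3 parietal arrays lay at 8.394 or above.

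The frontal minus parietal difference of Fst was 0.911 higher in KO than in WT tissue and that of Lmo4 was -1.062, both by the limma interaction test across all genes.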

How the results depend on the processing

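The 34 WT calls became 134 with array weights, 22 with a 1.5-fold minimum and 13 without WT frontal 4 and WT parietal 2 together, and leaving out 1 array gave 24 to 69. The other settings gave 30 to 36 calls, or 47 with the replicate block, 32 of them shared. With only the arrays compared there were 36, of which 22 were shared. Same-numbered arrays share only a number. Kept in every setting other than the 1.5-fold minimum were 11 genes (Cldn1, Bhlhe40, Cntnap5c, Arhgap28, Sdk1, Vegfc, Fut8, Nr2f1, Tenm3, Egfem1 and Nts), of which Vegfc lies under that minimum, and no called gene changed sign. The 47 KO calls became 28 with array medians subtracted, 24 with no trend, 730 with array weights, 72 with the replicate block and 19 with a 1.5-fold minimum (7 to 60 with 1 array left out). The 2 interaction calls became 0 with array medians subtracted, with no trend, with the Y-linked covariate and with only the arrays compared, 47 with array weights and 1 with the replicate block (0 to 6 with 1 array left out). The 1 parietal call became 0 with array medians subtracted, with no trend, with the Y-linked covariate, with only the arrays compared and with a 1.5-fold minimum, and 12 with array weights (0 to 12 with 1 array left out). The cause was not tested. Values that changed sign, none of them called, were Tbr1 (-0.0014 to 0.13 with 1 array left out), Eif2s3y (-0.10 to 1.26), Kdm5d (-0.17 to 0.75) and Uty (-0.0874 to 1.13), each lowest for the Y-linked genes without WT parietal 2. Without WT frontal 4 and WT parietal 2 together Eif2s3y was -0.0543, Kdm5d -0.14 and Uty -0.12, and with the meningeal covariate Dcn was -0.0245 and Slc6a13 -0.0301. The array scale limits low signals, and 4 arrays a group limit small differences.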

Other observations

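None of 3 lists of axon guidance genes held a call. Of 18 semaphorins, plexins and neuropilins, 14 were lower in frontal tissue (median -0.11) and 6 of these had an unadjusted p under 0.05, where 6.48% of all genes did. Nrp1, a receptor of class 3 semaphorins, was 9.41 ± 0.16 in frontal and 10.12 ± 0.20 in parietal tissue (SD, n = 4 each, difference -0.71, limma adjusted p 0.0846), and its groups did not overlap. Of 17 Eph receptors and ephrins 12 were lower in frontal tissue (median -0.08), 4 with an unadjusted p under 0.05. Of 16 Slit, Robo and netrin genes 9 were lower and 7 higher in frontal tissue (median -0.06), 2 each way with an unadjusted p under 0.05. Robo1, a receptor of Slit proteins, was higher in frontal tissue without overlap (11.28 ± 0.09 against 10.89 ± 0.11, difference 0.39, limma adjusted p 0.148).

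Transmitter receptors likewise held no call among 19 glutamate, 11 GABA and glycine, and 16 monoamine and acetylcholine receptor genes measured. Gabra2, a GABA-A receptor subunit, was 9.21 ± 0.26 in frontal and 9.81 ± 0.09 in parietal tissue (SD, n = 4 each, limma adjusted p 0.128), and its KO difference was -0.54. Chrm2, a muscarinic acetylcholine receptor, was 8.49 ± 0.41 against 7.90 ± 0.12 (limma adjusted p 0.141). Sstr2, a somatostatin receptor, was 8.36 ± 0.36 against 9.01 ± 0.11 (difference -0.66, limma adjusted p 0.142).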
